A study of Mus musculus with 4 samples.

Results

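Cells with ckit and CD31 were sorted from the region around the embryonic aorta and compared by whether they expressed Runx1. No gate selected for a place on the aortic wall. Runx1+ intra-aortic hematopoietic cluster cells (IAHCs) were set against Runx1- IAHCs, with 1 library of each, and the comparison took in every gene with at least 10 TPM (transcript abundance per unit of gene length, scaled to a common total) in the higher of both libraries. This rule kept 8726 of 51205 genes. Both populations were NG2-PDGFRβ-CD31+ckit+ cells of the aorta-gonad-mesonephros (AGM) region at embryonic day 11, and they differed in the gate on Runx1(GFP), positive in Runx1+ IAHCs and negative in Runx1- IAHCs. No gate on CD45 was set for either. GFP came from a Runx1-IRES-GFP reporter. The labels give the genotype as WT, while the study's supplement describes pooled embryos heterozygous or homozygous for the reporter, so the number of reporter copies in either library is not known. The other populations of the study, also 1 library each, were ckit-CD45- CD31+ cells, namely hemogenic endothelial cells (HECs, Runx1(GFP)+) and endothelial cells (ECs, Runx1(GFP)-).

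Clusters form in the dorsal aorta when endothelial cells leave the vessel wall and take on a blood identity, and the transcription factor Runx1 is required for this step. During the transition, cells are known to lose endothelial junctions and basement membrane contact and to gain the adhesion molecules of blood cells. Primordial germ cells, which also carry ckit, migrate through the same region at this age.

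Each library was made from a part of the lysate of a pool of sorted cells, and the study sorted by far the fewest cells for the Runx1- IAHC library, about an order of magnitude fewer than for the Runx1+ IAHC library. A gene used by few cells can be missed in so small a sample, so that a gene without a read in Runx1- IAHCs may still be expressed by such cells, and neither the intervals nor the bounds given here cover this. With 1 library a population no difference can be tested, and no p-value is given. A gene is counted as higher or lower when the difference of log2(TPM + 1), Runx1+ IAHC minus Runx1- IAHC, was at least 2 in size, which is 4-fold on that scale. Folds are ratios of recovered reads per library, with exact 95% intervals that cover counting error only. Where a library had no read, the fold is a lower bound against 3 reads. The table gives every gene at least the value of 1 added read, so that a low value, such as 0.0394 TPM for Psmb8 in Runx1- IAHCs, can stand for no read at all. The genes used here held 15412229 reads in the Runx1+ IAHC library and 17232858 reads in the Runx1- IAHC library, and 21170 genes had a read in Runx1+ IAHCs against 18835 in Runx1- IAHCs.

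The sorted markers were checked first. Runx1 was at 10.1 TPM in Runx1+ IAHCs and 0.128 TPM in Runx1- IAHCs (1212 and 13 reads). Kit was at 34.5 TPM in Runx1+ IAHCs and 62.1 TPM in Runx1- IAHCs, and Pecam1 (CD31) stood at 11.9 TPM in Runx1+ IAHCs and 86.7 TPM in Runx1- IAHCs. Both libraries thus carried the RNA of the antigens that were selected. Ptprc, which encodes CD45, had 2132 reads in Runx1+ IAHCs and none in Runx1- IAHCs. Of the antigens that were sorted out, Cspg4 (NG2) had no read in either library, whereas Pdgfrb had 183 reads in Runx1+ IAHCs and none in Runx1- IAHCs.

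Markers of other cell types moved with the comparison. The leukocyte markers summed to 3264 TPM in Runx1+ IAHCs and 65.0 TPM in Runx1- IAHCs, with 14 of the 15 compared at least 4-fold higher, and 12 of the 20 in the table had no read in Runx1- IAHCs. The endothelial markers summed to 344 TPM in Runx1+ IAHCs and 3614 TPM in Runx1- IAHCs, with 16 of 19 lower. The germ cell markers summed to 1894 TPM in Runx1+ IAHCs, nearly all of it from Ifitm1 and Ifitm3, which other cells also express. In Runx1- IAHCs they summed to 10927 TPM, of which Ifitm1 gave 1128 TPM and Ifitm3 2172 TPM. Of the 18 compared, 16 were lower. Dppa3 and Dppa5a had no read in Runx1+ IAHCs and 15437 and 19681 reads in Runx1- IAHCs. Germ cell RNA was thus abundant in the Runx1- IAHC library, in which CD45 RNA was not found. Markers of the mesonephric or gonadal epithelium were near 0 in both libraries, at a sum of 0.823 TPM in Runx1+ IAHCs and 0.158 TPM in Runx1- IAHCs. In bulk samples a lower level can come from fewer cells of a type or from less RNA per cell, and these cannot be told apart. The part of the marker-bearing cells in the results that follow was not tested.

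Across the 8726 genes, 489 were higher (5.60%) and 1524 were lower (17.5%) in Runx1+ IAHCs. The median difference was -0.53, and the quartiles were -1.55 and 0.50. Of the genes that were higher, 122 had no read in Runx1- IAHCs, and of those that were lower, 161 had no read in Runx1+ IAHCs. The values nearest the 10 TPM minimum were those of Adcy9, kept with 1.38 TPM in Runx1+ IAHCs and 10.0002 TPM in Runx1- IAHCs, and of Pabpn1, left out with 9.998 TPM in Runx1+ IAHCs and 9.31 TPM in Runx1- IAHCs. Protein-coding genes made up 6586 of the genes compared, with a median of -0.69, and 5.56% of them were higher and 18.4% lower. A further 1751 were processed pseudogenes, whose reads are hard to place and whose median was 0.16. Rescaling both libraries by the median of their ratios moved the median of all genes to -0.21. Lists of genes are therefore called below by their distance from the median of all genes. A list median is printed as it is, and a relative median has that of all genes subtracted.

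Programs were described with 67 lists of genes, each with at least 5 members at the minimum. A list was called apart when its median lay at least 1 log2 unit above or below that of all genes. By this rule 5 lists stood higher in Runx1+ IAHCs, 10 stood lower and 52 were not apart. The highest were MHC class I presentation (median 2.55) and the integrins (1.54). At the low end were epithelial junctions (-3.87, or -3.69 without the endothelial marker among them), collagens, laminins and matrix (-3.69), and semaphorins, plexins and ephrins (-3.58). The minimum of 10 TPM bears on these medians, since a gene may pass it in a single library, the one in which it is higher. Of the junction, matrix and guidance genes compared, 0 of 12, 1 of 14 and 0 of 5 reached 10 TPM in Runx1+ IAHCs, while all of them did in Runx1- IAHCs. Of the MHC class I and integrin genes compared, 4 of 7 and 2 of 6 reached 10 TPM in Runx1- IAHCs, while all of them did in Runx1+ IAHCs. The counts and medians of these lists are therefore descriptions of the genes kept and not of the whole families.

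**Figure D1:**
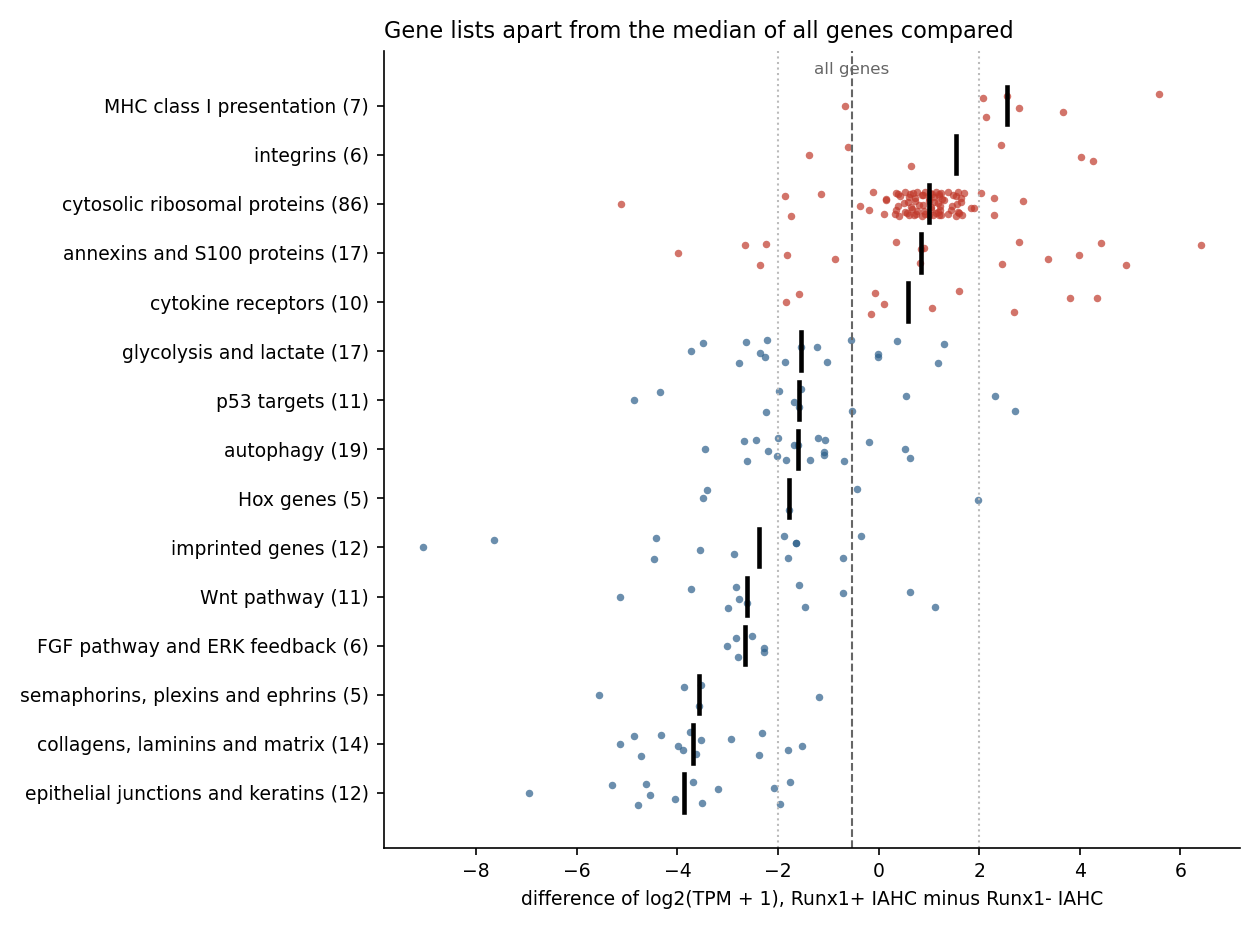
Difference of log2(TPM + 1), Runx1+ IAHC minus Runx1- IAHC, of each member (points) of the 15 lists that stood apart, with list medians as black bars, the number of members in brackets, the median of all genes (-0.53) as a dashed line and the 4-fold limits as dotted lines. Members of the FGF list all lie beyond the lower limit, whereas annexins and S100 proteins lie on both sides.

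MHC class I molecules present peptides to T cells, and the peptides are cut by a form of the proteasome, the immunoproteasome, in which 3 subunits replace the catalytic ones. The list named 31 genes, of which 7 were compared, and 6 of these were higher in Runx1+ IAHCs, against 5.60% of all genes, and none was lower. Psmb8, an immunoproteasome subunit, was at 48.7 TPM in Runx1+ IAHCs (1356 reads) and 0.0394 TPM, that of the added read, in Runx1- IAHCs, which makes it at least 412-fold higher. Psmb9, another of these subunits, was at 12.1 TPM in Runx1+ IAHCs (448 reads) and was likewise without a read in Runx1- IAHCs, which makes it at least 136-fold higher. Psmb10 differed less, at 179 TPM in Runx1+ IAHCs and 40.0 TPM in Runx1- IAHCs, 4.49-fold higher (4.12 to 4.89). H2-D1, a class I heavy chain, was at 62.4 TPM in Runx1+ IAHCs and 8.15 TPM in Runx1- IAHCs, 7.69-fold higher (6.63 to 8.98). B2m, the light chain, was at 953 TPM in Runx1+ IAHCs and 162 TPM in Runx1- IAHCs, 5.89-fold higher (5.55 to 6.25). Tapbp, which loads peptides onto class I, went the other way at 23.98 TPM in Runx1+ IAHCs and 38.5 TPM in Runx1- IAHCs. Class I genes are close copies of each other, and their reads are placed with some uncertainty.

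The rest of the proteasome did not share this shift. Without Psmb8, Psmb9 and Psmb10, 33 subunits had a median of -0.61, near that of all genes (-0.53). None was at least 4-fold higher and 2 were lower, while 5.60% of all genes were higher and 17.5% lower. The lower were Psmd2, a subunit of the regulatory cap, with 95.6 TPM in Runx1+ IAHCs and 470 TPM in Runx1- IAHCs, and Psmd5, a chaperone of its assembly, with 26.7 TPM in Runx1+ IAHCs and 118 TPM in Runx1- IAHCs. Psmb6, the catalytic subunit that Psmb9 replaces, was at 532 TPM in Runx1+ IAHCs and 1428 TPM in Runx1- IAHCs, 2.69-fold lower (2.63 to 2.75). In Runx1+ IAHCs, Psmb6 still stood above Psmb9 on the TPM scale, which is per length. Psmb6 was named after its values were seen. Of the catalytic subunits Psmb5, Psmb6 and Psmb7, 2 were compared, with differences of -1.42 for Psmb6 and -0.04 for the other.

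Integrins anchor cells to matrix or to other cells, and of 25 genes listed 6 were compared. Of these, 3 were higher (50%, against 5.60% of all genes) and none was lower (17.5% of all genes). Itgb2, the beta chain shared by leukocyte integrins, was at 28.3 TPM in Runx1+ IAHCs and 0.530 TPM in Runx1- IAHCs, 57.1-fold higher (33.8 to 105). Its partner Itgal was at 21.6 TPM in Runx1+ IAHCs and 0.394 TPM in Runx1- IAHCs, also 57.1-fold higher (37.9 to 90.4). Itga4, which binds Vcam1, was at 17.5 TPM in Runx1+ IAHCs and 2.42 TPM in Runx1- IAHCs. Itgb1, the beta chain with which Itga4 pairs, was not higher but stood at 48.7 TPM in Runx1+ IAHCs and 129 TPM in Runx1- IAHCs. The call of the list rested on the 10 TPM minimum: with a minimum of 1 TPM, which lets in more integrins, its relative median was -0.38.

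Annexins and S100 proteins bind calcium at membranes, and 17 of their genes were compared. Of these, 7 were higher (41.2%) and 4 were lower (23.5%), against 5.60% and 17.5% of all genes. S100a8 was at 97.1 TPM in Runx1+ IAHCs (685 reads) and its partner S100a9 was at 35.4 TPM (187 reads), while both were without reads in Runx1- IAHCs. Together they form the calprotectin of neutrophils and monocytes. S100a4, which acts in cell motility, had 145 reads in Runx1+ IAHCs (24.6 TPM) and 0 in Runx1- IAHCs. S100a11 was at 395 TPM in Runx1+ IAHCs and 24.1 TPM in Runx1- IAHCs, 16.6-fold higher (13.7 to 20.2). The lower members were S100a16, with 9.47 TPM in Runx1+ IAHCs and 164 TPM in Runx1- IAHCs, and 3 annexins. Anxa5, which binds phosphatidylserine, was at 60.0 TPM in Runx1+ IAHCs and 386 TPM in Runx1- IAHCs, 6.44-fold lower (6.04 to 6.87). Anxa6 was at 34.99 TPM in Runx1+ IAHCs and 182 TPM in Runx1- IAHCs, and Anxa2 was at 26.2 TPM in Runx1+ IAHCs and 127 TPM in Runx1- IAHCs. Anxa1, which limits neutrophil recruitment, was the annexin on the other side, at 39.4 TPM in Runx1+ IAHCs and 4.80 TPM in Runx1- IAHCs. The list was split rather than shifted, and with a minimum of 50 TPM its relative median was -0.27.

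Among 10 cytokine receptors, 3 were higher (30%, against 5.60% of all genes) and none was lower (17.5% of all genes). Flt3, a receptor of early lymphoid and myeloid progenitors, was at 19.7 TPM in Runx1+ IAHCs (1240 reads), with no read in Runx1- IAHCs. It was also near 0 in HECs, at 0.0155 TPM. Csf1r, the receptor of macrophage colony-stimulating factor and a leukocyte marker here, was at 13.3 TPM in Runx1+ IAHCs (663 reads), with 0 reads in Runx1- IAHCs. The chains of the interferon receptors did not move together. Ifnar2 was at 29.0 TPM in Runx1+ IAHCs and 3.66 TPM in Runx1- IAHCs, while its partner Ifnar1 was at 7.98 TPM in Runx1+ IAHCs and 26.03 TPM in Runx1- IAHCs, 3.26-fold lower (2.94 to 3.63). Ifngr2, a chain of the interferon gamma receptor, was at 10.9 TPM in Runx1+ IAHCs and 41.5 TPM in Runx1- IAHCs. The list lost its place with a pseudocount of 5 TPM (relative median 0.99) and when only genes with a read in both libraries were kept (0.55).

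**Figure D2:**
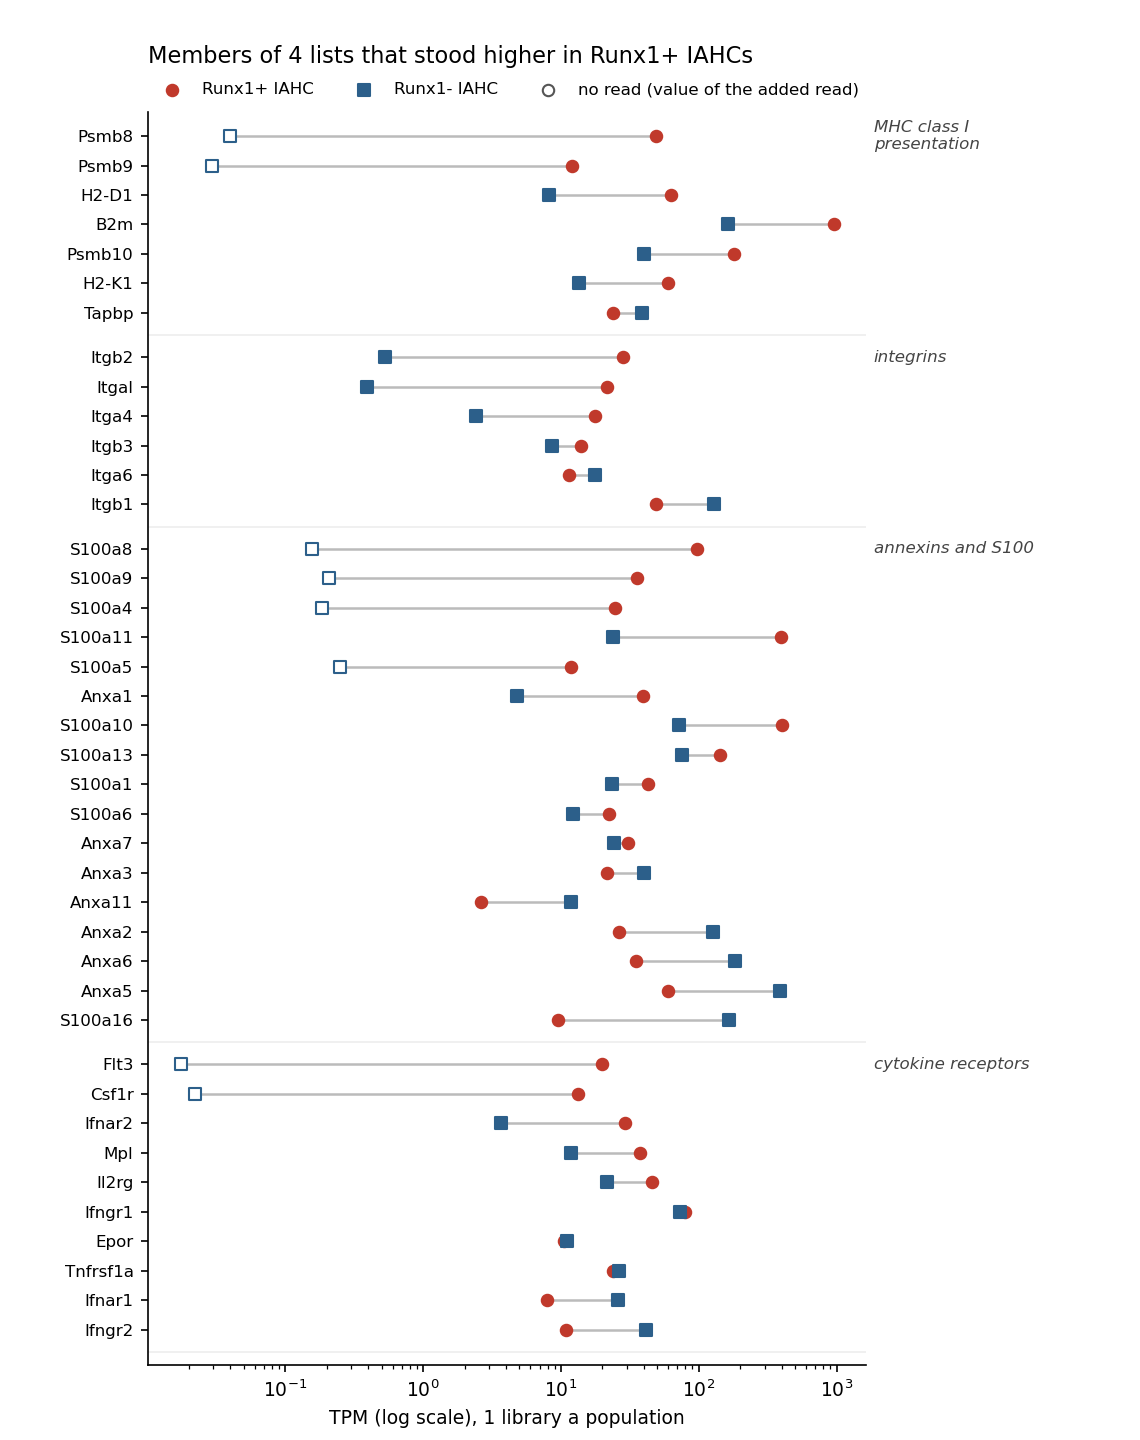
TPM (log axis) in Runx1+ IAHCs (red circles) and Runx1- IAHCs (blue squares) of every member compared of 4 lists, with open symbols where a library had no read and the plotted value is that of the added read. Psmb8, Psmb9, S100a8, S100a9, S100a4, S100a5, Flt3 and Csf1r have open squares in Runx1- IAHCs.

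Ribosomal protein genes stood higher by a small amount. Of 86 cytosolic ribosomal proteins 4 were at least 4-fold higher (4.65%) and 1 was lower (1.16%), against 5.60% and 17.5% of all genes. Their median was 0.99, and they summed to 74113 TPM in Runx1+ IAHCs against 42811 TPM in Runx1- IAHCs. Of the 86, 82 lay above the median of all genes and 79 lay above 0. Rps12 differed most, at 403 TPM in Runx1+ IAHCs and 54.1 TPM in Runx1- IAHCs, 7.45-fold higher (6.98 to 7.96). Rps20 was at 670 TPM in Runx1+ IAHCs and 135 TPM in Runx1- IAHCs. Some paralogs were on the opposite side. Rpl10l, a retrogene that stands in for Rpl10 in male germ cells, had 0 reads in Runx1+ IAHCs and 352 reads in Runx1- IAHCs (37.2 TPM), which makes it at least 129-fold lower. Rpl39l was at 16.3 TPM in Runx1+ IAHCs and 57.0 TPM in Runx1- IAHCs, and Rps4l was at 251 TPM in Runx1+ IAHCs and 912 TPM in Runx1- IAHCs. Reads of such copies are placed with uncertainty.

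The difference also varied with gene length and level, and ribosomal protein genes were set beside other protein-coding genes of like length and level. At an exonic length of up to 1000 bases, 15 ribosomal protein genes had a median of 0.76 and 328 other genes a median of 0.16. Between 2000 and 4000 bases, 26 ribosomal protein genes had a median of 0.91 and 2380 other genes a median of -0.86. Between 300 and 1000 TPM in the higher library, 36 ribosomal protein genes had a median of 1.04 and 322 other genes a median of -0.23. Between 30 and 100 TPM the order was the other way, with a median of -1.74 for 3 ribosomal protein genes and -0.81 for 2255 other genes. The part of length and level in the result was not tested.

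Of 42 genes of cell junctions and keratins 12 were compared. Of these, 10 lay 4-fold or more below in Runx1+ IAHCs (83.3%, against 17.5% of all genes) and none above. Without Cldn5, 9 of 11 were lower. Its members were of more than a single kind. Cldn5, the tight junction claudin of endothelium and an endothelial marker here, was at 8.68 TPM in Runx1+ IAHCs and 1196 TPM in Runx1- IAHCs, 139-fold lower (116 to 167). Epcam, an adhesion molecule of epithelia that germ cells also carry, was at 2.79 TPM in Runx1+ IAHCs and 104 TPM in Runx1- IAHCs, 38.5-fold lower (26.5 to 58.3). Cldn6, a claudin of embryonic epithelia and pluripotent cells, had no read in Runx1+ IAHCs and 575 reads in Runx1- IAHCs (41.2 TPM). Cdh3, which encodes P-cadherin, had 2 reads in Runx1+ IAHCs and 1031 reads in Runx1- IAHCs (25.4 TPM), a ratio of 566 (156 to 4680). In ECs, Cldn5 reached 355 TPM, Epcam 11.98 TPM and Cldn6 1.34 TPM.

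Of 70 extracellular matrix genes 14 were compared, of which 12 were lower (85.7%, against 17.5% of all genes) and none was higher. Nid2, a linker of the basement membrane, was at 1.02 TPM in Runx1+ IAHCs and 70.6 TPM in Runx1- IAHCs, 70.1-fold lower (53.5 to 93.8). Timp1, an inhibitor of matrix proteases, had no read in Runx1+ IAHCs and 257 reads in Runx1- IAHCs (31.3 TPM). Mmp2, a protease of type IV collagen, was at 3.55 TPM in Runx1+ IAHCs and 120 TPM in Runx1- IAHCs, so that proteases and inhibitors were both lower. Lamb1, a laminin chain, was at 1.24 TPM in Runx1+ IAHCs and 43.7 TPM in Runx1- IAHCs. Fn1 (fibronectin) and Col4a2 (a chain of type IV collagen) were the members under 4-fold, with differences of -1.52 and -1.81, and were named after their values were seen.

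Of 49 guidance molecules of vessels and axons only 5 were compared, and 4 of these were lower (80%, against 17.5% of all genes). Efna1, an ephrin ligand, was at 5.21 TPM in Runx1+ IAHCs and 293 TPM in Runx1- IAHCs, 56.9-fold lower (46.5 to 70.4). Ephb4, a receptor known from veins, was at 1.25 TPM in Runx1+ IAHCs and 32.1 TPM in Runx1- IAHCs, and Nrp2, a coreceptor of lymphatic and venous endothelium, was at 0.265 TPM in Runx1+ IAHCs and 14.1 TPM in Runx1- IAHCs. Plxnd1, a semaphorin receptor of endothelium, was at 2.66 TPM in Runx1+ IAHCs and 41.5 TPM in Runx1- IAHCs.

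Of 35 genes of the FGF pathway and its ERK feedback only 6 were compared. All 6 reached 10 TPM in Runx1- IAHCs and 1 of them did in Runx1+ IAHCs. Each of the 6 was at least 4-fold lower, against 17.5% of all genes. ERK signalling induces phosphatases and Sprouty proteins that dampen it, and so these genes are often read as its targets. Dusp6, a phosphatase of ERK, was at 15.3 TPM in Runx1+ IAHCs and 115 TPM in Runx1- IAHCs, 7.54-fold lower (6.85 to 8.31). Etv5, a transcription factor downstream of FGF, was at 4.14 TPM in Runx1+ IAHCs and 34.9 TPM in Runx1- IAHCs, and Etv4 was at 0.411 TPM in Runx1+ IAHCs and 10.4 TPM in Runx1- IAHCs. Spry1 was at 2.06 TPM in Runx1+ IAHCs and 16.5 TPM in Runx1- IAHCs. In the Wnt pathway 6 of 11 genes were lower (54.5%, against 17.5% of all genes) and none was higher. Of the 11, 9 reached 10 TPM in Runx1- IAHCs and 4 did in Runx1+ IAHCs, so this count describes the genes kept. Porcn, which lipidates Wnt ligands for secretion, had no read in Runx1+ IAHCs and 980 reads in Runx1- IAHCs (35.3 TPM), which makes it at least 359-fold lower. Lef1, a nuclear partner of beta-catenin, had 2 reads in Runx1+ IAHCs and 1037 in Runx1- IAHCs (12.7 TPM). Tcf7l2, a related factor, was at 2.79 TPM in Runx1+ IAHCs and 25.9 TPM in Runx1- IAHCs. The secreted antagonists were divided, with Sfrp1 at 0.472 TPM in Runx1+ IAHCs and 10.7 TPM in Runx1- IAHCs and Sfrp2 at 12.9 TPM in Runx1+ IAHCs and 5.36 TPM in Runx1- IAHCs.

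Imprinted genes, expressed from the allele of a single parent, were lower in 6 of 12 cases (50%, against 17.5% of all genes) and higher in none. Mest was at 1.15 TPM in Runx1+ IAHCs and 1152 TPM in Runx1- IAHCs, 1028-fold lower (768 to 1410). Phlda2, which restrains placental growth, was at 1.23 TPM in Runx1+ IAHCs and 448 TPM in Runx1- IAHCs, 394-fold lower (230 to 740). Snrpn was at 10.2 TPM in Runx1+ IAHCs and 238 TPM in Runx1- IAHCs, 23.5-fold lower (20.5 to 27.0). No imprinted gene compared had a difference above 0. All 12 reached 10 TPM in Runx1- IAHCs and 6 did in Runx1+ IAHCs. A gene kept through Runx1- IAHCs alone cannot have a difference above 0, so this result was partly set by the minimum. The 5 Hox genes compared, which mark position along the body axis, were on both sides of 0. Hoxb7 was at 0.572 TPM in Runx1+ IAHCs and 16.8 TPM in Runx1- IAHCs, whereas Hoxa7 was at 12.6 TPM in Runx1+ IAHCs and 2.47 TPM in Runx1- IAHCs, a difference of 1.97. With a pseudocount of 5 TPM the Hox list was not apart (relative median -0.63).

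Glycolysis genes were lower in 7 of 17 cases (41.2%, against 17.5% of all genes) and higher in none. Of the 17, 3 had a difference above 0 and 5 lay above the median of all genes. Pfkl, the liver form of phosphofructokinase, was at 13.5 TPM in Runx1+ IAHCs and 191 TPM in Runx1- IAHCs, 14.2-fold lower (13.2 to 15.2). Pkm, a pyruvate kinase, was at 162 TPM in Runx1+ IAHCs and 1017 TPM in Runx1- IAHCs, and Slc16a3, a lactate exporter, was at 3.31 TPM in Runx1+ IAHCs and 28.6 TPM in Runx1- IAHCs. Lactate dehydrogenase differed in its B form only: Ldhb was at 39.8 TPM in Runx1+ IAHCs and 461 TPM in Runx1- IAHCs, 11.6-fold lower (10.7 to 12.6), while Ldha was at 667 TPM in Runx1+ IAHCs and 673 TPM in Runx1- IAHCs. Tpi1 was likewise at 394 TPM in Runx1+ IAHCs and 399 TPM in Runx1- IAHCs. Hk2, a hexokinase, stood on the higher side, at 23.9 TPM in Runx1+ IAHCs and 9.90 TPM in Runx1- IAHCs, as did Slc16a1, another lactate transporter, at 44.2 TPM in Runx1+ IAHCs and 17.5 TPM in Runx1- IAHCs. The list lay at the limit of the rule (relative median -1.01) and fell short of it among protein-coding genes only (-0.85) and when mitochondrial, ribosomal protein and hemoglobin genes were left out of the scaling (-0.83).

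Among 11 targets of p53, 3 were lower (27.3%) and 2 were higher (18.2%), against 17.5% and 5.60% of all genes. Phlda3, a repressor of Akt, was at 1.008 TPM in Runx1+ IAHCs and 57.3 TPM in Runx1- IAHCs, 60.5-fold lower (36.5 to 109). Plk2, a kinase, was at 14.3 TPM in Runx1+ IAHCs and 311 TPM in Runx1- IAHCs, and Aen, a nuclease, was at 4.94 TPM in Runx1+ IAHCs and 27.1 TPM in Runx1- IAHCs. The higher were Pmaip1, a killer protein of the Bcl2 family, with 24.2 TPM in Runx1+ IAHCs and 2.85 TPM in Runx1- IAHCs, and Perp, with 52.0 TPM in Runx1+ IAHCs and 9.61 TPM in Runx1- IAHCs. Bax, the pore-forming member, was at 89.8 TPM in Runx1+ IAHCs and 357 TPM in Runx1- IAHCs, and so the death effectors stood on both sides. Of 19 autophagy genes 7 were lower (36.8%, against 17.5% of all genes) and none was higher. All 19 reached 10 TPM in Runx1- IAHCs and 8 did in Runx1+ IAHCs, so this count describes the genes kept. Atg13, a part of the complex that starts the process, was at 3.69 TPM in Runx1+ IAHCs and 50.3 TPM in Runx1- IAHCs, 13.7-fold lower (11.7 to 16.2). Map1lc3a was at 9.73 TPM in Runx1+ IAHCs and 67.9 TPM in Runx1- IAHCs. Both lists fell short of the limit with a pseudocount of 5 TPM (relative medians -0.78 for p53 targets and -0.79 for autophagy) and among protein-coding genes (-0.91 and -0.92).

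**Figure D3:**
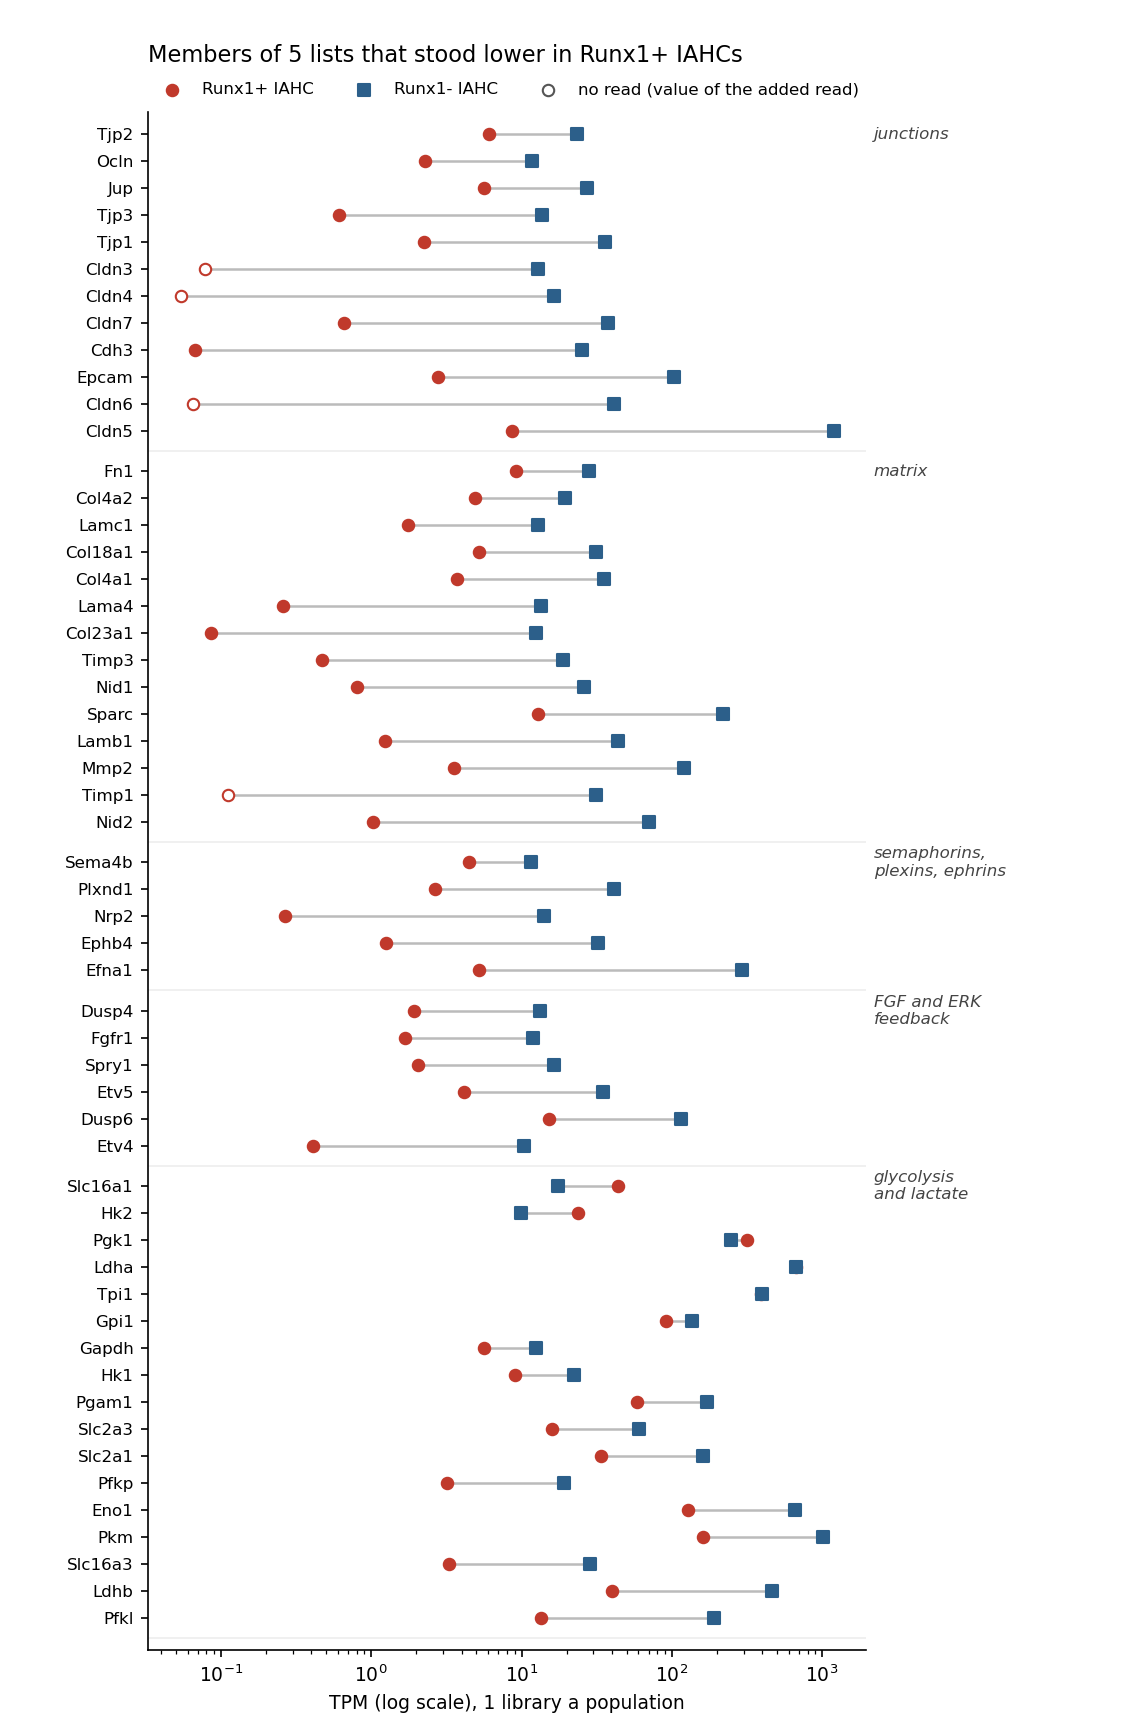
TPM (log axis) in Runx1+ IAHCs (red circles) and Runx1- IAHCs (blue squares) of every member compared of 5 lists, with open symbols where a library had no read. Junction, matrix, guidance and FGF genes all lie to the left in Runx1+ IAHCs, while Ldha and Tpi1 coincide and Hk2, Slc16a1 and Pgk1 lie to the right.

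Several lists were not apart as a whole but held members with large differences. In DNA methylation the enzymes differed singly. Dnmt3b, a de novo methyltransferase, was at 106 TPM in Runx1+ IAHCs and 1.79 TPM in Runx1- IAHCs, 59.5-fold higher (48.0 to 74.8), while its paralog Dnmt3a was at 18.2 TPM in Runx1+ IAHCs and 22.5 TPM in Runx1- IAHCs and the maintenance enzyme Dnmt1 was at 49.3 TPM in Runx1+ IAHCs and 56.7 TPM in Runx1- IAHCs. Mbd3, a part of the NuRD complex, was at 45.7 TPM in Runx1+ IAHCs and 276 TPM in Runx1- IAHCs. Of 18 Polycomb genes 1 was higher (5.56%) and 3 were lower (16.7%), shares near those of all genes (5.60% and 17.5%). Suz12, a core subunit of Polycomb complex PRC2, was at 31.3 TPM in Runx1+ IAHCs and 4.54 TPM in Runx1- IAHCs. Ezh1, a methyltransferase of that complex, was at 1.81 TPM in Runx1+ IAHCs and 16.6 TPM in Runx1- IAHCs, and Phf19, a subunit that recruits it, was at 1.40 TPM in Runx1+ IAHCs and 28.4 TPM in Runx1- IAHCs. Hmga2, a chromatin protein of fetal stem cells, was at 113 TPM in Runx1+ IAHCs and 6.56 TPM in Runx1- IAHCs, 17.3-fold higher (15.6 to 19.1), and Hmga1 was at 172 TPM in Runx1+ IAHCs and 203 TPM in Runx1- IAHCs. Cdk6, a G1 kinase, was at 33.2 TPM in Runx1+ IAHCs and 4.10 TPM in Runx1- IAHCs, whereas Ccnd3, a cyclin that pairs with it, was at 15.0 TPM in Runx1+ IAHCs and 95.2 TPM in Runx1- IAHCs.

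Actin regulators held members far out on both sides. Of 34 genes 5 were higher (14.7%) and 4 were lower (11.8%), against 5.60% and 17.5% of all genes. Gsn, the filament-severing gelsolin, was at 78.5 TPM in Runx1+ IAHCs (2524 reads) with 0 reads in Runx1- IAHCs, which makes it at least 766-fold higher. Was, the actin nucleation factor of blood cells, was at 43.3 TPM in Runx1+ IAHCs and 1.36 TPM in Runx1- IAHCs, 33.0-fold higher (22.8 to 49.5). In the WAVE complex, Cyfip2 was at 17.9 TPM in Runx1+ IAHCs and 1.12 TPM in Runx1- IAHCs, while Cyfip1, its paralog, was at 7.52 TPM in Runx1+ IAHCs and 59.4 TPM in Runx1- IAHCs. Nckap1, which binds either, was at 0.989 TPM in Runx1+ IAHCs and 22.3 TPM in Runx1- IAHCs.

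Of 27 families of paralogs with at least 2 members compared, 6 had a member at least 2-fold higher and another at least 2-fold lower on the log2(TPM + 1) scale. Arhgdib, a gene of blood cells, was at 1193 TPM in Runx1+ IAHCs and 134 TPM in Runx1- IAHCs, while Arhgdia, its widely expressed relative, was at 103 TPM in Runx1+ IAHCs and 287 TPM in Runx1- IAHCs. Coro1a, the coronin of leukocytes, was at 226 TPM in Runx1+ IAHCs and 12.9 TPM in Runx1- IAHCs, and Coro1b was at 78.7 TPM in Runx1+ IAHCs and 255 TPM in Runx1- IAHCs, with Coro1c on the same side as Coro1b. Among the guardians against cell death, Mcl1 was at 74.7 TPM in Runx1+ IAHCs and 27.2 TPM in Runx1- IAHCs, and Bcl2l1 was at 8.97 TPM in Runx1+ IAHCs and 22.7 TPM in Runx1- IAHCs. The other families were the hexokinases, the Irf factors, with Irf5 at 15.2 TPM in Runx1+ IAHCs and 3.34 TPM in Runx1- IAHCs and Irf1 at 9.41 TPM in Runx1+ IAHCs and 49.8 TPM in Runx1- IAHCs, and the Stat factors, with Stat4 at 12.6 TPM in Runx1+ IAHCs and 4.32 TPM in Runx1- IAHCs and Stat6 at 11.4 TPM in Runx1+ IAHCs and 35.4 TPM in Runx1- IAHCs.

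**Figure D4:**
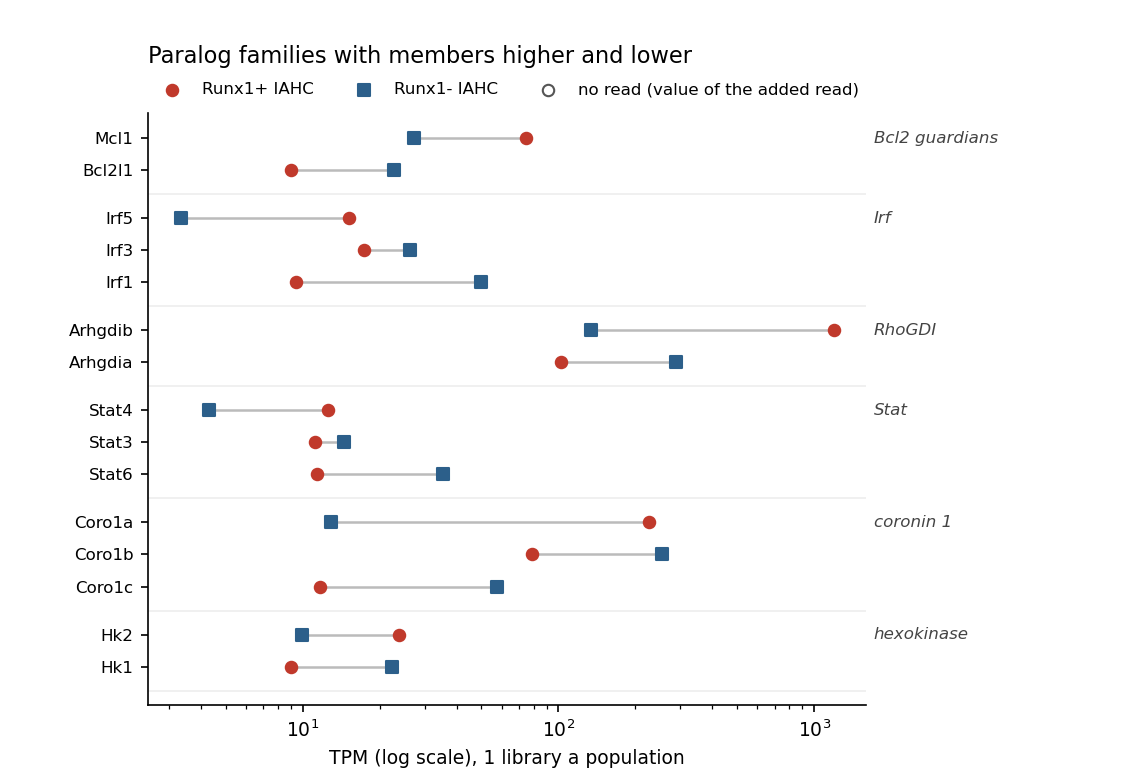
TPM (log axis) in Runx1+ IAHCs (red circles) and Runx1- IAHCs (blue squares) of the members compared of the 6 families with members on both sides. In each family the upper gene lies to the right in Runx1+ IAHCs and the lowest gene lies to the left.

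Splicing factors and respiratory chain genes showed the same kind of single members. Among 27 SR proteins and hnRNPs 3 were higher (11.1%) and 1 was lower (3.7%), against 5.60% and 17.5% of all genes. Hnrnpa0 had the largest difference on the higher side, with 135 TPM in Runx1+ IAHCs and 22.1 TPM in Runx1- IAHCs. Srsf4 was the 1 that was lower, at 0.717 TPM in Runx1+ IAHCs and 19.4 TPM in Runx1- IAHCs, 28.1-fold lower (18.8 to 43.7). Of 73 nuclear genes of the respiratory chain 2 were higher (2.74%) and 3 lower (4.11%), against 5.60% and 17.5% of all genes. Their relative median was 0.70, short of the limit of 1, and 61 of them lay above the median of all genes. Cox4i2, an isoform of a cytochrome c oxidase subunit that is induced in low oxygen in some tissues, was at 72.8 TPM in Runx1+ IAHCs (583 reads) with 0 reads in Runx1- IAHCs, which makes it at least 177-fold higher. The common isoform Cox4i1, named after its values were seen, was at 1283 TPM in Runx1+ IAHCs and 1556 TPM in Runx1- IAHCs. Cox6a2, a heart and muscle isoform of another subunit, had 91 reads in Runx1+ IAHCs and 0 in Runx1- IAHCs. Uqcrc1, a core subunit of complex III, was at 138 TPM in Runx1+ IAHCs and 661 TPM in Runx1- IAHCs, and Cox7b2 had 0 reads in Runx1+ IAHCs and 51 in Runx1- IAHCs. Of the genes of the mitochondrial genome 3 of 9 were higher (33.3%, against 5.60% of all genes). The value of mt-Nd3 was 424 TPM in Runx1+ IAHCs and 65.1 TPM in Runx1- IAHCs, and that of mt-Nd6 was 2263 TPM in Runx1+ IAHCs and 406 TPM in Runx1- IAHCs. Against these, mt-Cytb was at 8659 TPM in Runx1+ IAHCs and 26679 TPM in Runx1- IAHCs, 3.08-fold lower (3.06 to 3.10). These genes have nuclear copies, and their reads are placed with uncertainty.

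Outside the marker lists, the 12 genes with the largest differences at 50 TPM or more were all without a read in Runx1- IAHCs. They came from several blood lineages. Cpa3, a protease of mast cells and their progenitors, was at 177 TPM in Runx1+ IAHCs (2729 reads), a difference of at least 828-fold. Serpinb1a, an inhibitor of neutrophil proteases, had 2991 reads in Runx1+ IAHCs, and the chemokines Ccl3 and Ccl4 had 629 and 603 reads. Trbc2 and Ighm, constant regions of the T cell receptor and of immunoglobulin M, had 1956 and 1326 reads, and Cd79b, which signals for the B cell receptor, had 1062 reads. Reads in a constant region do not show a rearranged receptor. The others were Stfa1, Nkg7, S100a8, Wfdc17 and Gsn.

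The 12 genes at the other end held 8 without a read in Runx1+ IAHCs. Tcl1, a cofactor of Akt in pluripotent and germ cells, had 3688 reads in Runx1- IAHCs (216 TPM), at least 1350-fold lower in Runx1+ IAHCs. Tdh, the threonine dehydrogenase on which mouse embryonic stem cells depend, had 4147 reads in Runx1- IAHCs (171 TPM), at least 1518-fold lower. Sox15 had 1504 reads and Fkbp6, which acts in meiosis and the piRNA pathway of male germ cells, had 2322 reads in Runx1- IAHCs. Aplnr, the apelin receptor of endothelium, had 5686 reads in Runx1- IAHCs (166 TPM). Aplnr was also at 145 TPM in ECs, while Tcl1 was at 4.50 TPM and Tdh at 1.497 TPM there. Rhox5 was at 4.30 TPM in Runx1+ IAHCs and 1356 TPM in Runx1- IAHCs, and Gstm3 was at 1.198 TPM in Runx1+ IAHCs and 360 TPM in Runx1- IAHCs. Mest, Phlda2, Dppa5c, Prl3b1 and Pla2g10 completed the group, of which Dppa5c and Rhox5 have close copies.

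Start sites of these genes were read from RefSeq promoters of build GRCm38.p6, 250 bases before to 50 after the start. The letters TGTGGT, a form of the core of the RUNX motif, and GAGGAAGT, a motif of the Ets factor PU.1, were searched on both strands. Other forms of either motif were not counted. The motifs can share at most 1 letter with each other, and 113 of 19346 promoters held both. Promoters were matched for 7 of the 12 genes at the higher end and 9 of the 12 at the lower end. Of all 19346 promoters, 15.7% held TGTGGT and 3.16% held GAGGAAGT. No share is given for either end or for all higher genes, since too few of them were matched (75.7% of the higher protein-coding genes). A match is a description of the letters and not of a bound site. Stfa1 (chr16:36276898-36277197, plus strand) is shown for its 2 RUNX matches, S100a8 (chr3:90668821-90669120, plus strand) for its PU.1 match and Mest (chr6:30733256-30733555, plus strand) as the gene with the largest difference at the lower end, with no match. A single promoter was read per gene, the nearest to its annotated start. The window of Mest lies inside the annotated gene, which starts at chr6:30723547, so its lack of a match concerns this window and these exact letters only. Capitals mark the matches on either strand.
Stfa1: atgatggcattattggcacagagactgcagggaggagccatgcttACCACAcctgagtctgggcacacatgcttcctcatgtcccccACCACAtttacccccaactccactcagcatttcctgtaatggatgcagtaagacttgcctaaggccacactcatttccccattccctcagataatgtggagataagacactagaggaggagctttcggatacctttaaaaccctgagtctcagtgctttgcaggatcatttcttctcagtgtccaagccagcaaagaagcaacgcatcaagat
S100a8: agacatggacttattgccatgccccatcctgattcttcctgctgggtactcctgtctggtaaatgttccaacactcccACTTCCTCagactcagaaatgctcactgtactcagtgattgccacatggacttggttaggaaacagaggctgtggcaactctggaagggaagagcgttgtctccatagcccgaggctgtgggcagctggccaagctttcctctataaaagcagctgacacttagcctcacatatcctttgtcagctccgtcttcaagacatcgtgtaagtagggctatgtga
Mest: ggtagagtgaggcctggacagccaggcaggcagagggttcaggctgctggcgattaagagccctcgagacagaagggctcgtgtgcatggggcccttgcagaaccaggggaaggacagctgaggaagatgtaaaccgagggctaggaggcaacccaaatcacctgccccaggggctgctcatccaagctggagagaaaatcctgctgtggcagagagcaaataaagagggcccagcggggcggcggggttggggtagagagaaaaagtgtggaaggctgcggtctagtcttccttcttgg

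The ckit- libraries, which share no sample with the IAHC libraries, gave a second view of the same genes. Over the 7793 genes at 10 TPM or more in HECs or ECs, 8.87% had a level in HECs 4-fold or more over that in ECs, and 9.24% had a level as far under it. Of the 489 genes higher in Runx1+ IAHCs, 117 (23.9%) were also at least 4-fold higher in HECs than in ECs, against 5.48% of all genes compared. Of the 1524 lower genes, 319 (20.9%) had a level in HECs 4-fold or more under that in ECs, against 5.84% of all. Comparisons across the gates reuse a library by which the genes were chosen, which raises their counts, and nothing is read from them. Of the lower genes, 921 lay 4-fold or more above ECs in Runx1- IAHCs (21.6% of all genes compared were) and 9 as far below (3.62% of all). Of the higher genes, 113 lay 4-fold or more above HECs in Runx1+ IAHCs (2.62% of all) and 20 as far below (2.45% of all). Hemoglobin and platelet genes weighed on the TPM of the ckit- libraries. The erythroid markers summed to 25947 TPM in HECs and 48526 TPM in ECs, and the megakaryocyte markers to 52897 TPM in HECs and 437 TPM in ECs, while the erythroid markers summed to 594 TPM in Runx1+ IAHCs and 596 TPM in Runx1- IAHCs. Endothelial markers summed to 430 TPM in HECs and 4012 TPM in ECs, and leukocyte markers to 3442 TPM in HECs and 64.7 TPM in ECs. The part of these marker-bearing cells in the differences between HECs and ECs was not tested.

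Between HECs and ECs, matrix, guidance and imprinted genes also stood lower, with relative medians of -3.49, -3.30 and -3.30. For glycolysis, the relative median was -1.01 between the IAHC libraries but 1.18 for HEC minus EC. In HECs Pfkl reached 17.9 TPM and Pkm 159 TPM, against 6.18 TPM and 150 TPM in ECs, so for these genes the Runx1- IAHC library was the highest of the 4. Ribosomal protein genes, with a relative median of 1.53 between the IAHC libraries, were at -0.35 for HEC minus EC. Notch pathway, BMP and TGF-beta pathway and fetal program lists were lower in HECs than in ECs by relative medians of -2.48, -3.02 and -2.23 but were not apart between the IAHC libraries. The difference between the gates was not tested.

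**Figure D5:**
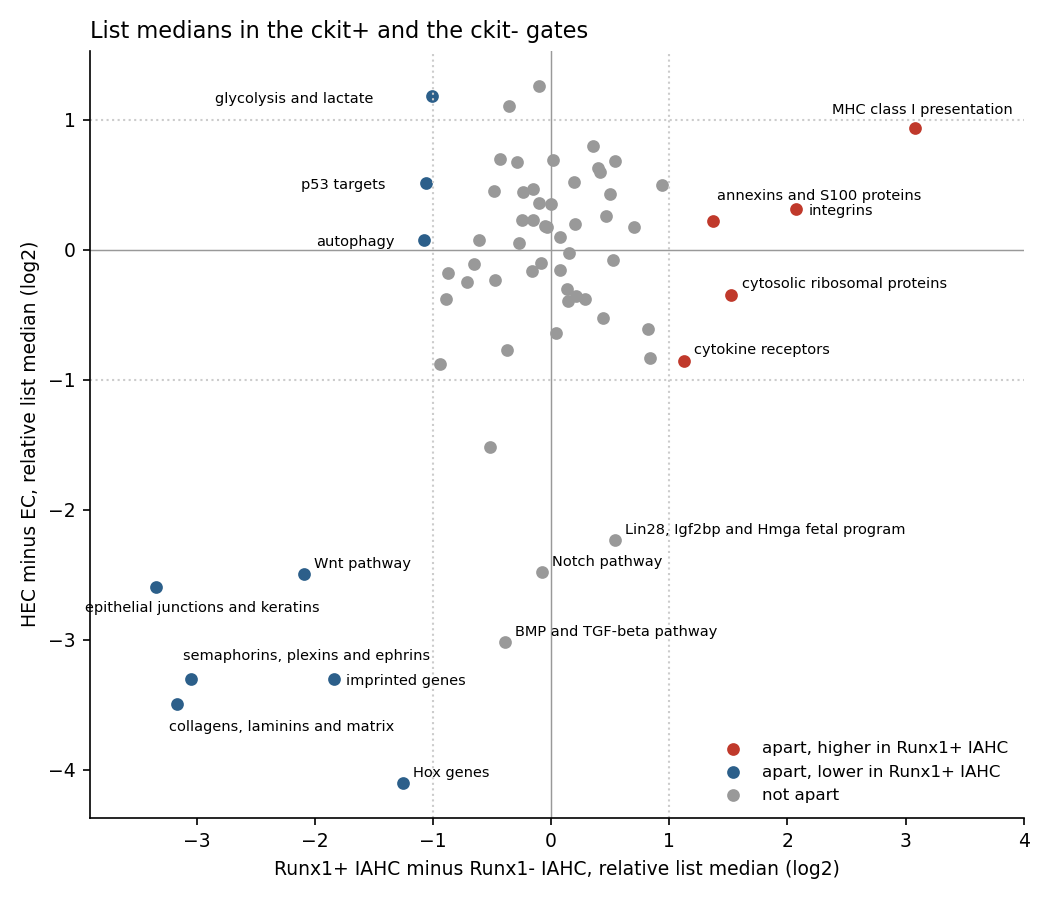
Median of each list relative to the median of all genes compared, for Runx1+ IAHC minus Runx1- IAHC (x axis) and HEC minus EC (y axis), in log2 units, for 65 of 67 lists with at least 5 members in both comparisons, each set with its own genes at 10 TPM or more. Matrix, guidance, junction, imprinted, Wnt and Hox lists lie at the lower left, and glycolysis lies at the upper left.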

How the data were processed

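RNA was measured in 4 sorted populations of E11 AGM, 1 library each. The methods describe full-length cDNA made from part of the lysate of sorted cells, and transposase-made libraries, whose kit does not mark strand, sequenced as short single reads. The labels and methods give alignment to GRCm38 by HISAT2 2.0.4. Genes of a GENCODE annotation were counted in union mode, in which reads on more than 1 gene are not assigned. The authors deposited TPM, not logged, for 51205 genes. No value was 0. With exonic lengths of a later GENCODE release (same build), the values of 96.4% of genes were whole multiples (within 0.01 reads) of 1 read in all libraries, with 1 read added to every gene. For the other 1834 genes the length was searched for. Recovered reads gave folds, exact 95% intervals and bounds (3 reads per library where none was seen).

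Differences are of log2(TPM + 1), which understates low genes. No test was run, since each population has 1 library. The lists, families and members were chosen with earlier results of these data known. Genes were named as the 2 to 4 members of a described list with the largest differences in either direction, the 12 highest and 12 lowest at 50 TPM or more outside the marker lists with no predicted, clone or pseudogene symbol, the families split at 2-fold and the sorted antigens. Psmb10, Anxa1, Ldha, Tpi1, Dnmt1, Dnmt3a and Hmga1 fell outside this rule and were added after their values were seen. Alternatives were a pseudocount of 5 TPM, minimums of 1 and 50 TPM, scaling by the median of ratios, scaling that left out hemoglobin, ribosomal protein and mitochondrial genes, genes with a read in both libraries and, chosen after seeing the data, protein-coding genes only. Further tables of the series held 9 columns of other populations, which were not used. Scripts (Python 3.11.15, pandas 2.3.3, numpy 2.4.6, scipy 1.17.1) were tested on simulated data.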

Additional observations from a re-analysis of the deposited data

Results flagged for a closer look

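Glycolysis and lactate genes stood on opposite sides in the ckit+ and the ckit- gates. Their median, relative to that of all genes compared, was -1.01 for Runx1+ IAHC minus Runx1- IAHC and 1.18 for HEC minus EC. The difference between the gates was not tested, since each population has 1 library.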

How the results depend on the processing

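No paired analysis was possible because the labels carry no replicate numbers and each population has 1 library. The 489 higher and 1524 lower genes became 258 and 797 with a pseudocount of 5 TPM, which shrinks differences of low genes, and 170 and 540 with a minimum of 50 TPM, which compares fewer genes. With a minimum of 1 TPM 867 genes were higher. Lists apart and higher numbered 2 with a minimum of 50 TPM and 3 among genes with a read in both libraries, against 5. Of the lower genes, those with Runx1- IAHCs at least 4-fold above ECs numbered 466 with a pseudocount of 5 TPM, 385 with a minimum of 50 TPM and 587 with median of ratios scaling, against 921. Among the lists called apart, the relative median changed sign for integrins with a minimum of 1 TPM (-0.38) and for annexins and S100 proteins with a minimum of 50 TPM (-0.27). Lists that were not apart also changed sign in some settings, such as the Bcl2 family (-0.35, and 0.71 with a minimum of 1 TPM). The cause was not tested. Of 582 genes followed through the alternatives, 0 of those at 4-fold or more changed sign. These settings could not turn the sign of so large a difference, so nothing is read from this count. A larger pseudocount keeps the sign, and the filters leave a gene's value as it is. The rescalings moved the median of all genes only to -0.21 and -0.43. Of the 582 genes, 116 fell under 4-fold in at least 1 setting, 79 of them with the larger pseudocount only. Changes of sign among smaller differences were not counted. Without replicates the spread between embryos or sorts is not known, and the few cells behind the Runx1- IAHC library limit what a gene without a read there can show, beyond counting error.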

Other observations

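Of 18 tetraspanins, which organise membrane proteins, 3 lay 4-fold or more above Runx1- IAHCs in Runx1+ IAHCs and 7 lay as far below (16.7% and 38.9%, against 5.60% and 17.5% of all genes). Cd53, a leukocyte marker here, had 1563 reads in Runx1+ IAHCs and none in Runx1- IAHCs, and Cd37, known from B cells, was at 18.8 TPM in Runx1+ IAHCs and 1.68 TPM in Runx1- IAHCs. Tspan12, which acts in the Norrin pathway of vessels, was at 0.326 TPM in Runx1+ IAHCs and 29.0 TPM in Runx1- IAHCs, 97.7-fold lower (52.9 to 204), and Tspan18 was at 2.69 TPM in Runx1+ IAHCs and 76.3 TPM in Runx1- IAHCs.

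Lysosomal proteases differed by member, with 4 of 33 lysosomal genes higher (12.1%) and 7 lower (21.2%), against 5.60% and 17.5% of all genes. Ctss, the cathepsin of antigen-presenting cells, had 446 reads in Runx1+ IAHCs and none in Runx1- IAHCs, a difference of at least 135-fold, and Cd68 had 328 reads in Runx1+ IAHCs and none in Runx1- IAHCs. Lgmn, an asparaginyl protease, was at 5.58 TPM in Runx1+ IAHCs and 78.5 TPM in Runx1- IAHCs, 14.2-fold lower (11.9 to 17.1), and Ctsh was at 1.70 TPM in Runx1+ IAHCs and 26.8 TPM in Runx1- IAHCs.

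All 76 mitochondrial ribosomal proteins and all 19 tRNA synthetases compared were within 4-fold, while 5.60% of all genes were higher and 17.5% lower. Their medians were -0.13 and -0.82, against -0.53 for all genes.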
